A study of Mus musculus with 4 samples.

Results

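Foxa1, Foxa2 and Foxa3 are the 3 members of the FOXA subfamily of forkhead transcription factors, and they were taken by symbol from 21887 mouse genes. For each gene, reads were counted over its RefSeq span plus 2 kb on either side, in the listed regulatory regions near it and in the deposited links between regions. Of 427 columns of transcription factor motif scores, 2 carried a FOXA name, Foxa1 and Foxa3, and none was named Foxa2. The data are single-nucleus ATAC-seq, in which Tn5 transposase cuts open chromatin inside intact nuclei and combinatorial barcodes assign each read to a nucleus. Nuclei came from the mammary gland of wild-type CD1 mice, from thawed cells sorted as EpCAM+ Lin-, at embryonic day 18 (fetal, 2 libraries) and at 8 weeks of age (adult, 2 libraries). No genetic change or treatment is named for either stage, and the labels call the libraries of a stage biological replicates without saying how many animals each holds.

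FOXA proteins are called pioneer factors because their winged-helix domain can bind its site on nucleosomal DNA, after which other factors can reach the same stretch of chromatin. FOXA1 and FOXA2 are best known for opening enhancers in the gut endoderm and liver, and FOXA3 for its part in liver gene expression. In the mammary gland and in breast cancer FOXA1 opens sites for the estrogen receptor, marks luminal cells and is needed for the growth of ducts at puberty. ATAC-seq shows whether the DNA at a gene is open and does not measure its RNA or protein.

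The 4 libraries held 882 and 1695 fetal nuclei and 2465 and 2804 adult nuclei, with a median of 5535.5, 7488, 4420 and 5457.5 reads per nucleus. The deposited table places these 7846 nuclei in 14 classes, numbered 1 to 14, and no nucleus barcode was shared between libraries. By summed reads over marker genes, classes 1, 4 and 8 were basal-like, classes 3 and 7 luminal progenitor-like and classes 2 and 11 mature luminal-like, with 7 and 6 of 9 mature luminal markers raised. Classes 5 and 9 held fetal luminal nuclei, with 4 and 5 of 6 luminal markers raised. Class 6, from both stages, had all 7 stromal and none of 6 luminal markers raised, although the sort was for EpCAM+ cells, and classes 12 and 13 had too few raised markers to be named. Class 10 had 4 luminal progenitor and 4 mature luminal markers raised and class 14 had 6 basal and 6 mature luminal markers raised. Classes 4, 5, 9, 12 and 13 were almost wholly fetal, and classes 1, 2, 3, 7, 8, 10, 11 and 14 almost wholly adult. The classes were made from these same reads, so levels by class are given as a description with no test.

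In mm10 coordinates Foxa1 lies on the minus strand at chr12:57540628-57548029, Foxa2 on the minus strand at chr2:148042877-148046969 and Foxa3 on the minus strand at chr7:19013283-19023539. The span of Foxa1 overlaps the start of Ttc6 at chr12:57546704-57737911, so reads in the shared stretch cannot be assigned to either gene. The 2 kb flank of Foxa3 takes in the start of the neighbouring gene Sympk, which encodes a scaffold protein of messenger RNA 3′ end processing. The 250 bases before a RefSeq transcript start of each gene are printed to show which carry the forkhead core letters listed below the sequences. They come from RefSeq on GRCm38.p6 and run 5′ to 3′ on the minus strand, with those letters in capitals. The starts used for Foxa1 and Foxa2 lie inside the spans given above and are internal transcript starts, while that of Foxa3 is the upstream end of its span.
Foxa1 promoter, chr12:57546112-57546361: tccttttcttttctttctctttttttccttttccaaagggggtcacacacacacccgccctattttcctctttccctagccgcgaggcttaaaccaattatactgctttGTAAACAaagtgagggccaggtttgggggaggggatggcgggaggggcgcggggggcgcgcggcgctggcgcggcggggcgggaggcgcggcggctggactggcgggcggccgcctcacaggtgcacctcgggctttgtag
Foxa2 promoter, chr2:148045465-148045714: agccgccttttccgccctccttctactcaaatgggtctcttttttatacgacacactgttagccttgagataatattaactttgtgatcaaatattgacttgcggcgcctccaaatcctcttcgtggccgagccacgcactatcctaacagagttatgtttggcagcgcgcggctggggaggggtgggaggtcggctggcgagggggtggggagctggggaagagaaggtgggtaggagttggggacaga
Foxa3 promoter, chr7:19023540-19023789: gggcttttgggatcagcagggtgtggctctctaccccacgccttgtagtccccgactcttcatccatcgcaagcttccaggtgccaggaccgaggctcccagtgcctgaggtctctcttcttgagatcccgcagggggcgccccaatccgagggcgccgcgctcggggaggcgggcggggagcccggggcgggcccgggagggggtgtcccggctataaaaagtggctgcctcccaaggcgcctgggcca
The letters searched on both strands were TGTTTAC and TATTTAC as well as TGTTTGC and TATTTGC, no pair of which can match at the same place on a strand. The Foxa1 promoter held 1 match, to TGTTTAC on the other strand and therefore printed as GTAAACA, 141 bases before the start. The Foxa2 and Foxa3 promoters held 0 matches, as did the 2 other RefSeq entries of Foxa2. Other forms of the forkhead core, such as those ending in T, were not searched, so 0 matches holds only for these letters. Of 32851 promoter stretches of the same length, 3.17% held TGTTTAC and 11.9% held any of the searched letters, so a match is not rare, and it does not show a bound site. GC content was 62.0% for Foxa1 and 68.8% for Foxa3 against a median of 52.4% over all entries, with 21 and 18 CpG dinucleotides against a median of 6. The printed Foxa2 stretch had 54.4% GC and 13 CpG, and the other Foxa2 entries had 50.8% and 6 at the upstream end of the span and 67.2% and 20 at a start between these. Of the printed bases, 242 for Foxa1 lie in the listed promoter region chr12:57546120-57547119, 120 for Foxa2 in chr2:148044585-148045584 and 78 for Foxa3 in chr7:19023712-19024711.

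Foxa1 was the FOXA gene whose accessibility varied most among classes. Levels are in CPM, the usual depth-scaled read count, with the reads in a span plus flanks scaled to the reads of the same nuclei in all gene spans. In class 2 Foxa1 stood at 216 CPM in adult replicate 1 and 215 CPM in adult replicate 2. In class 11 it stood at 178 and 214 CPM in the same libraries. Both mature luminal-like classes were thus above every basal-like, progenitor-like and stromal class in both libraries. The unnamed fetal class 13 was as high, at 236 CPM in fetal replicate 1 (40 nuclei, under the 50 set as a minimum for a level) and 227 CPM in fetal replicate 2 (66 nuclei). Class 10 followed with 182 and 165 CPM and class 14 with 176 (25 nuclei) and 128 CPM in adult replicates 1 and 2.

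In the libraries of the stage that holds most of each class, the remaining 9 classes lay lower, from 85.2 CPM ± 4.54 (SD, n = 2) in class 3 to 25.6 CPM ± 2.31 (SD, n = 2) in stromal class 6. The fetal nuclei of class 6 gave 55.1 CPM (23 nuclei, interval 20.2 to 120.0) and 94.8 CPM (33 nuclei, interval 61.4 to 140.0), both sums under the minimum of 50 nuclei, and only the second interval lies above those of the adult libraries. Class 9, the larger fetal luminal class, gave 71.2 and 79.0 CPM, and class 7, the larger adult progenitor-like class, gave 84.1 and 59.6 CPM. Basal-like class 1 gave a mean of 43.2 CPM ± 2.30 (SD, n = 2) and basal-like class 8 a mean of 57.5 CPM ± 8.64 (SD, n = 2). In the order of the means, the counting intervals of classes 13, 2, 11 and 10 each overlapped those of the next class. The step from class 14 to class 3 lay outside the 95% exact Poisson intervals in adult replicate 1 and inside them in adult replicate 2. Both values of class 9 lay between those of class 7, so these neighbours did not differ beyond their spread.

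**Figure D1:**
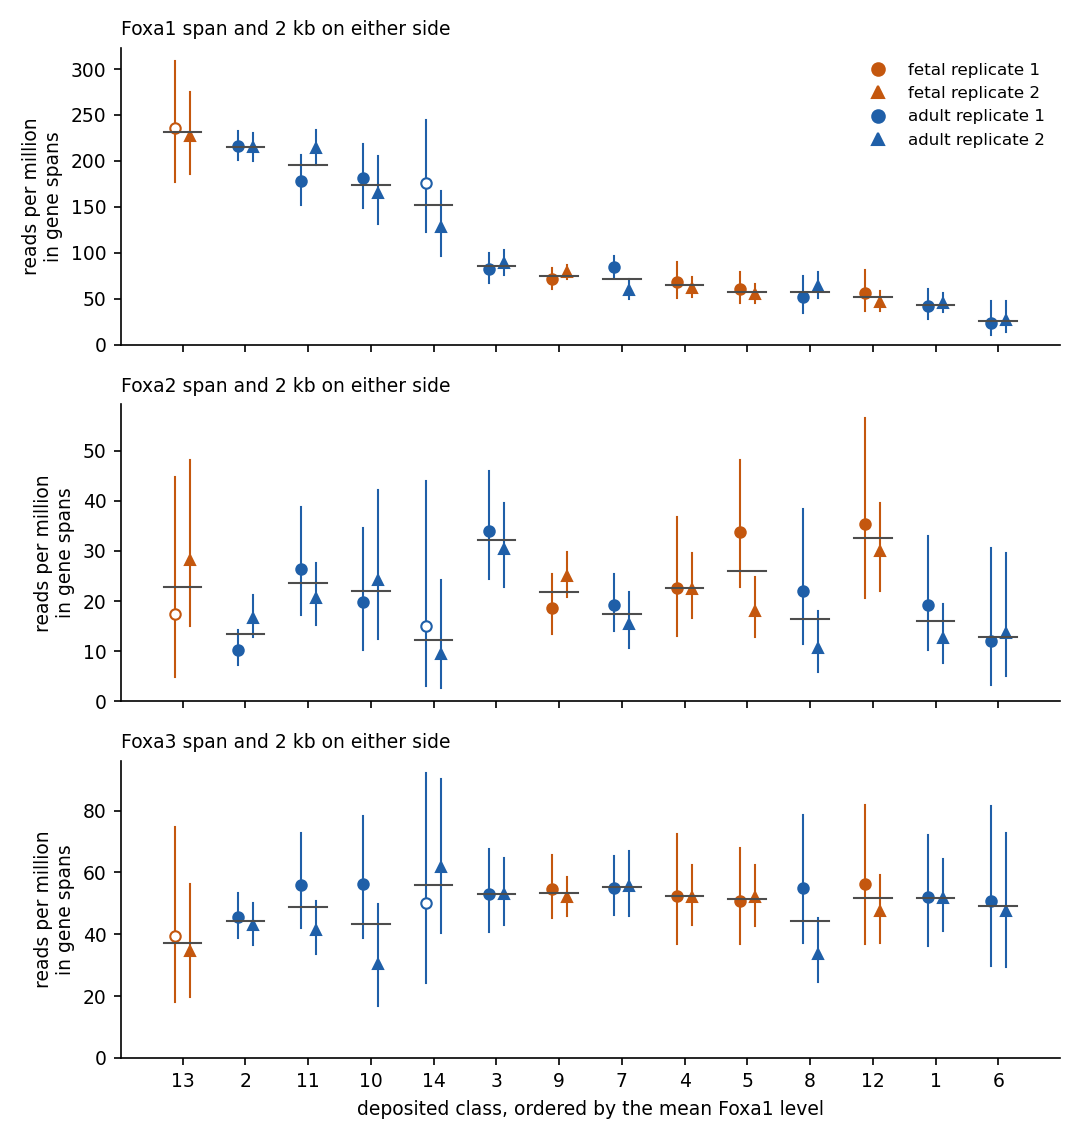
Reads over Foxa1, Foxa2 and Foxa3 (span plus 2 kb, in CPM on a linear axis) by class, with classes ordered by the mean of Foxa1. Points are libraries of the stage that holds most of the class, bars are 95% exact Poisson intervals that cover counting error only, grey lines are means of 2 libraries, and an open marker is a sum of under 50 nuclei. Foxa1 runs from 232 CPM in class 13 to 25.6 CPM in class 6, while Foxa2 stays between 12.3 and 32.6 CPM and Foxa3 between 37.0 and 55.9 CPM.

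Pooled by lineage, adult Foxa1 levels were 207.9 and 214.5 CPM in the mature luminal-like nuclei of classes 2 and 11. They were 83.4 and 73.1 CPM in the progenitor-like nuclei of classes 3 and 7, and 45.9 and 53.3 CPM in the basal-like nuclei of classes 1 and 8. On the log2(CPM + 2) scale, mature luminal-like minus progenitor-like was 1.30 in replicate 1 and 1.53 in replicate 2, a mean of 1.41 ± 0.162 (SD, n = 2). That difference ranked 499th of 17270 genes in replicate 1 and 252nd of 17924 genes in replicate 2. Mature luminal-like minus basal-like was 2.05 ± 0.114 (SD, n = 2). In fetal nuclei, class 13 minus the luminal classes 5 and 9 was 1.76 and 1.64, ranking 143rd of 16274 and 137th of 17569 genes. Fetal luminal and fetal basal-like nuclei had nearly the same level, at 68.2 and 71.7 CPM against 68.1 and 62.0 CPM.

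Class 13 shared its high Foxa1 level with the mature luminal-like classes and little of their marker pattern. Of 9 mature luminal markers only Ly6a, which encodes the surface antigen Sca-1, was raised in it, and of 6 general luminal markers 2 were raised. In class 13 none of 20 FOXA1-associated luminal genes stood at least 1 log2 unit above the fetal luminal classes in both libraries, but only 124 of 16265 genes (0.762%) did so in all, so this count says nothing particular of the list. Class 13 made up 4.54% and 3.89% of fetal nuclei and held 15.7% and 12.3% of the fetal Foxa1 reads. With 40 and 66 nuclei its values rest on few reads, 54 and 105 for Foxa1.

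Foxa2 and Foxa3 varied less, and neither followed Foxa1. Foxa2 was highest in fetal class 12, at a mean of 32.6 CPM ± 3.83 (SD, n = 2), and in progenitor-like class 3, at 32.2 CPM ± 2.52 (SD, n = 2). It was lowest in class 14, at 12.3 CPM ± 3.94 (SD, n = 2), and stood at 13.4 CPM ± 4.49 (SD, n = 2) in mature luminal-like class 2, where Foxa1 was high. Foxa3 ran from 37.0 CPM in class 13 to 55.9 CPM in class 14. Without the flanks that hold the start of Sympk it ran from 2.47 CPM ± 3.49 (SD, n = 2) in class 10 to 15.0 CPM ± 9.82 (SD, n = 2) in class 13. Most reads counted for Foxa3 thus did not fall in the gene itself, and class 13 was lowest with the flanks and highest without them. Per kilobase of the counted span, which allows genes to be compared, class means were 2.24 to 20.3 CPM per kb for Foxa1, 1.52 to 4.03 for Foxa2 and 2.60 to 3.92 for Foxa3. Over 26 sums of class and library with at least 50 nuclei, Pearson r of log2 levels was 0.084 between Foxa1 and Foxa2, -0.333 between Foxa1 and Foxa3 and 0.037 between Foxa2 and Foxa3, as a description of sums that share libraries and depth.

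The motif scores separated the classes along the same line as the Foxa1 gene. A deviation score compares a nucleus's reads in regions that carry a motif with the number its depth and base composition would give, so 0 is the average and the score has no unit. Class 11 had mean Foxa1 motif scores of 4.30 and 4.67 in adult replicates 1 and 2. Class 2 had 3.70 and 4.20, and fetal class 13 had 3.19 and 3.37. Classes 10 and 14 were also above 0 in both libraries, at 1.88 and 2.68 and at 1.67 and 1.52. All other classes were below 0, down to -2.53 and -2.77 in fetal basal-like class 4 and -2.59 and -2.68 in class 12.

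These means reflected nearly every nucleus of a class rather than a few. A Foxa1 motif score above 0 was found in 99.9% and 99.7% of class 2 nuclei and in 97.5% and 93.9% of class 13 nuclei. It was found in 19.9% and 19.3% of class 7, in 9.35% and 6.13% of class 9 and in 1.52% and 1.18% of class 4. Classes 10 and 14, which carried markers of more than 1 lineage and had the deepest nuclei, stood between, at 87.8% and 90.2% and at 80.0% and 81.4%. The part of doublets in classes 10 and 14 was not tested.

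**Figure D2:**
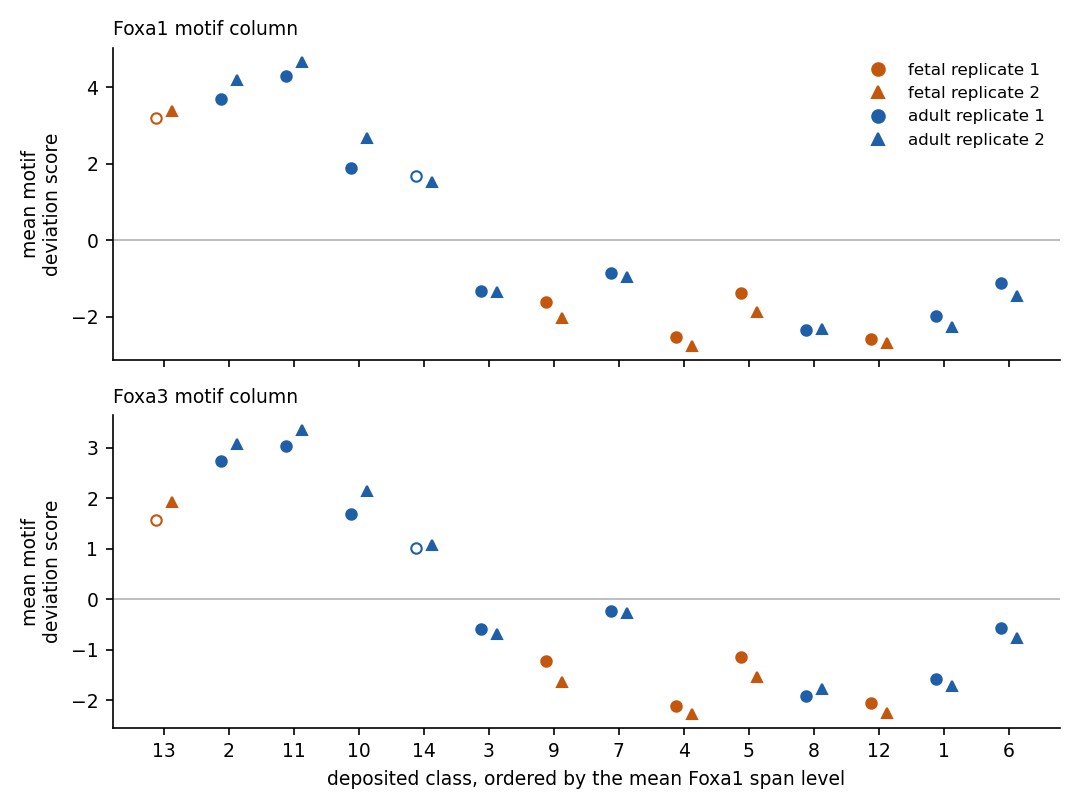
Mean deposited deviation score of the Foxa1 and Foxa3 motif columns (no unit, 0 is the average over nuclei) by class. Each point is 1 library of the stage that holds most of the class, and an open marker is under 50 nuclei. Classes 2, 10, 11, 13 and 14 lie above 0 for Foxa1, and the class means span 7.13 for Foxa1 and 5.39 for Foxa3.

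The class means spanned 7.13 for the Foxa1 column and 5.39 for the Foxa3 column. Ranked by class means over all nuclei of both stages, their spans were the 6th and 10th widest of 427 columns. The 21 other columns named for forkhead factors spanned 1.85 to 5.30, and all 23 forkhead columns were highest in class 11. Forkhead proteins read closely related letters, 23 columns held only 16 distinct sets of values, and a score therefore belongs to a motif and not to 1 protein. Outside the family, the columns most like Foxa1 over the 14 class means included Zkscan1 (Pearson r 0.958), Cux1 (0.902), Twist2 (0.852) and Arid5a (0.843), and the least like were Fezf2 (-0.927), Hdx (-0.916), Sox2 (-0.911), Stat6 (-0.903) and Bcl6b (-0.890). They were picked by r from 404 columns and moved far less than Foxa1. Over all nuclei of classes 11 and 4, Zkscan1 had 0.502 and -0.310 and Sox2 -0.911 and 0.705, against 4.53 and -2.68 for Foxa1.

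Among 44 forkhead genes, Foxa1 was the gene whose span followed the Foxa1 motif score most closely. Over the 26 sums of class and library, r was 0.865 for Foxa1, followed by 0.822 for Foxn4, a regulator of retinal and spinal progenitors, and 0.568 for Foxp4. It was -0.123 for Foxa2 and -0.363 for Foxa3. The region at the start of Sympk held 49.5% of the reads counted for Foxa3, so its r does not describe Foxa3 alone. Of 16239 genes, 17 had a higher r than Foxa1. Levels and scores come from the same nuclei and reads, so these values describe the profiles and carry no p.

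Between stages, Foxa1 was less accessible in the fetal libraries. It had 74.1 and 73.2 CPM in fetal replicates 1 and 2 and 137.7 and 132.9 CPM in adult replicates 1 and 2, from 345, 857, 1453 and 1887 reads. The 2 groups did not overlap, and the libraries of a stage lay close together. By edgeR's quasi-likelihood test, fetal over adult was -0.88 on the log2 scale (SE 0.110, adjusted p = 0.000140, Benjamini-Hochberg over all genes). Of 18808 genes tested 22.2% were called, 10.9% lower and 11.3% higher in fetal libraries. With 2 libraries a stage and no batch named in the labels, a batch that followed the stage cannot be told apart from it, and p-values measure only the spread between these libraries. The sample records give more wells of Tn5 cutting (tagmentation) for the adult than for the fetal libraries. That difference follows the stage and cannot be told apart from it either.

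The mature luminal-like classes with high Foxa1 were almost absent from the fetal libraries, unlike class 13, which was mostly fetal. Classes 2 and 11 made up 3 of 882 (0.340%) and 7 of 1695 (0.413%) fetal nuclei, and 1002 of 2465 (40.6%) and 1074 of 2804 (38.3%) adult nuclei. They held 64.2% and 68.9% of the adult Foxa1 reads and 0 and 2 fetal reads. Without these nuclei the Foxa1 difference was -0.11 with an adjusted p of 0.641 by edgeR. This subset leaves out high classes on the adult side and keeps fetal class 13, so a smaller difference follows from the choice of classes. Among the luminal nuclei of classes 3, 5, 7 and 9 alone the Foxa1 difference was -0.19 (edgeR adjusted p = 0.402). Among the basal-like nuclei of classes 1, 4 and 8 alone it was 0.33 (edgeR adjusted p = 0.544). Each of these classes was almost wholly of a single stage, so stage and class cannot be told apart within either subset. In a whole library, fewer nuclei of a class and less accessibility per nucleus cannot be told apart.

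Foxa2 had 23.6 CPM in each fetal library and 18.4 and 17.8 CPM in the adult libraries. The groups did not overlap, and the difference of 0.38 (SE 0.173) missed the threshold, with an edgeR adjusted p of 0.132. Counted without flanks it was 0.05. Foxa3 had means of 50.7 CPM in fetal and 49.2 CPM in adult libraries, a difference of 0.04 (SE 0.130, edgeR adjusted p = 0.853), and without flanks of 0.22.

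Both FOXA motif columns fell in fetal libraries. The library means of the Foxa1 score were -1.55 and -2.00 in fetal and 0.941 and 0.805 in adult replicates 1 and 2. Those of the Foxa3 score were -1.27 and -1.66 in fetal and 0.836 and 0.690 in adult replicates. The groups did not overlap for either column. By limma, fetal minus adult was -2.65 (SE 0.148, adjusted p = 0.000109) for Foxa1 and -2.23 (SE 0.135, adjusted p = 0.000109) for Foxa3, the 6th and 9th largest falls of 427 columns. Of all columns 67.9% were called and 35.6% were lower in fetal libraries, so a call by itself is common here.

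The motif scores were still called lower in fetal nuclei, by a smaller amount, when the mature luminal-like classes were left out. Without classes 2 and 11, fetal minus adult was -0.58 for Foxa1 (SE 0.188, limma adjusted p = 0.0484) and -0.80 for Foxa3 (limma adjusted p = 0.0146). Within classes 3, 5, 7 and 9 it was -0.71 (limma adjusted p = 0.00648) and -1.01 (limma adjusted p = 0.00154). Within the basal-like classes 1, 4 and 8 it was -0.40 (limma adjusted p = 6.01e-05) and -0.43 (limma adjusted p = 6.18e-06). Over all columns 53.4%, 68.4% and 50.1% were called in these 3 subsets, in the same order. Within classes 3, 5, 7 and 9 and within classes 1, 4 and 8, each class was almost wholly of a single stage. Stage and class therefore cannot be told apart there, and the classes were made from these same reads. The Foxa1 span was not called in any of the 3 subsets, and whether gene and motif differ in them was not tested.

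The 21 other forkhead columns were all called lower in fetal libraries, from -1.86 for Foxc1 to -0.73 for Foxq1, where 35.6% of all columns were lower, with a median of -1.23 against -0.01 over all columns. Of 10 factors that work with FOXA1 in luminal cells, 7 had a motif column, and all were called, where 67.9% of all columns were. The estrogen receptor Esr1 (-1.05), Xbp1 (-0.47), the progesterone receptor Pgr (-0.27) and Spdef (-0.21) were among those lower in fetal libraries. Gata3 (0.30) and Cebpb (0.27) were higher.

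The chromatin around Foxa1 showed the same stage difference region by region. Within 100 kb of the span, 29 regions of 1 kb were listed, 28 distal and 1 promoter, of which 25 were deep enough to test. Of these 18 were called lower in fetal libraries and 0 higher, by edgeR with Benjamini-Hochberg adjustment over all regions of a kind. At an unadjusted p under 0.05 the counts were 20 and 0. DESeq2 called 14 lower and 0 higher, where it called 11.4% of all distal and 6.96% of all promoter regions lower. Without adult replicate 2 fewer regions were deep enough to test and fewer were called. Over all regions, 35.3% of distal regions were called (18.8% lower) and 21.5% of promoter regions (11.0% lower). The median difference of the 25 regions was -1.52. Without the nuclei of classes 2 and 11, 0 of the 11 regions still deep enough were called (0 at an unadjusted p under 0.05 by edgeR), where 22.5% of distal and 13.8% of promoter regions were called over all.

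Inside the counted window lay 5 regions, and the promoter held the most reads. The promoter region chr12:57546120-57547119, which also covers the start of Ttc6, held 36.0% of the 4542 reads of the window, with 134 and 351 fetal and 552 and 600 adult reads. That was 95.7 CPM ± 5.44 (SD, n = 2) of promoter reads in fetal and 154 CPM ± 18.3 (SD, n = 2) in adult libraries, a difference of -0.67 (SE 0.134, edgeR adjusted p = 0.000107). The region chr12:57543211-57544210 in the gene body had 26 and 49 fetal and 163 and 173 adult reads, and it differed more, by -1.51 (SE 0.294, edgeR adjusted p = 8.07e-05). At the upstream end, chr12:57547971-57548970 had 32 and 56 against 154 and 202 reads, a difference of -1.33 (SE 0.280, edgeR adjusted p = 0.000240). The 2 remaining regions were weaker. The gene-body region chr12:57541273-57542272 gave -0.89 (SE 0.350, edgeR adjusted p = 0.0435), a call lost without fetal replicate 1 (adjusted p = 0.236), adult replicate 1 (0.0791) or adult replicate 2 (0.0817). The downstream region chr12:57538559-57539558 gave -0.59 (SE 0.287, edgeR adjusted p = 0.105).

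The largest falls lay outside the gene, and over whole fetal libraries those regions held few reads. The region chr12:57511210-57512209, 28419 bases downstream of the span and in no gene, had 2 and 2 fetal reads and 53 and 121 adult reads. Its difference was -4.68 (SE 0.614, edgeR adjusted p = 1.13e-07), and the adult to fetal ratio of pooled CPM was 28.1 with a counting interval of 10.8 to 104. The region chr12:57512778-57513777, 26851 bases downstream, had 2 and 3 fetal and 47 and 92 adult reads, a difference of -4.07 (edgeR adjusted p = 1.56e-06). Both were open in the mature luminal-like classes, the first at 20.7 and 32.8 CPM and the second at 17.4 and 24.6 CPM, against 0 and 0 CPM and 1.00 and 0 CPM in the progenitor-like classes. Another downstream region, chr12:57515450-57516449, had 0 and 2 fetal against 17 and 39 adult reads, a ratio of 18.1 with a counting interval of 4.79 to 153 (edgeR adjusted p = 0.00167). On the upstream side, within Ttc6, chr12:57583237-57584236 had 4 and 8 against 70 and 77 reads, a difference of -2.98 (SE 0.504, edgeR adjusted p = 1.10e-05). Of its 12 fetal reads 6 came from class 13, where it stood at 19.1 and 18.7 CPM, against 26.8 and 20.4 CPM in the mature luminal-like classes. Also within Ttc6, chr12:57587150-57588149 had 2 and 2 against 25 and 35 reads, a difference of -3.16 (edgeR adjusted p = 0.00300) that was not called without fetal replicate 2 (adjusted p = 0.0568).

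**Figure D3:**
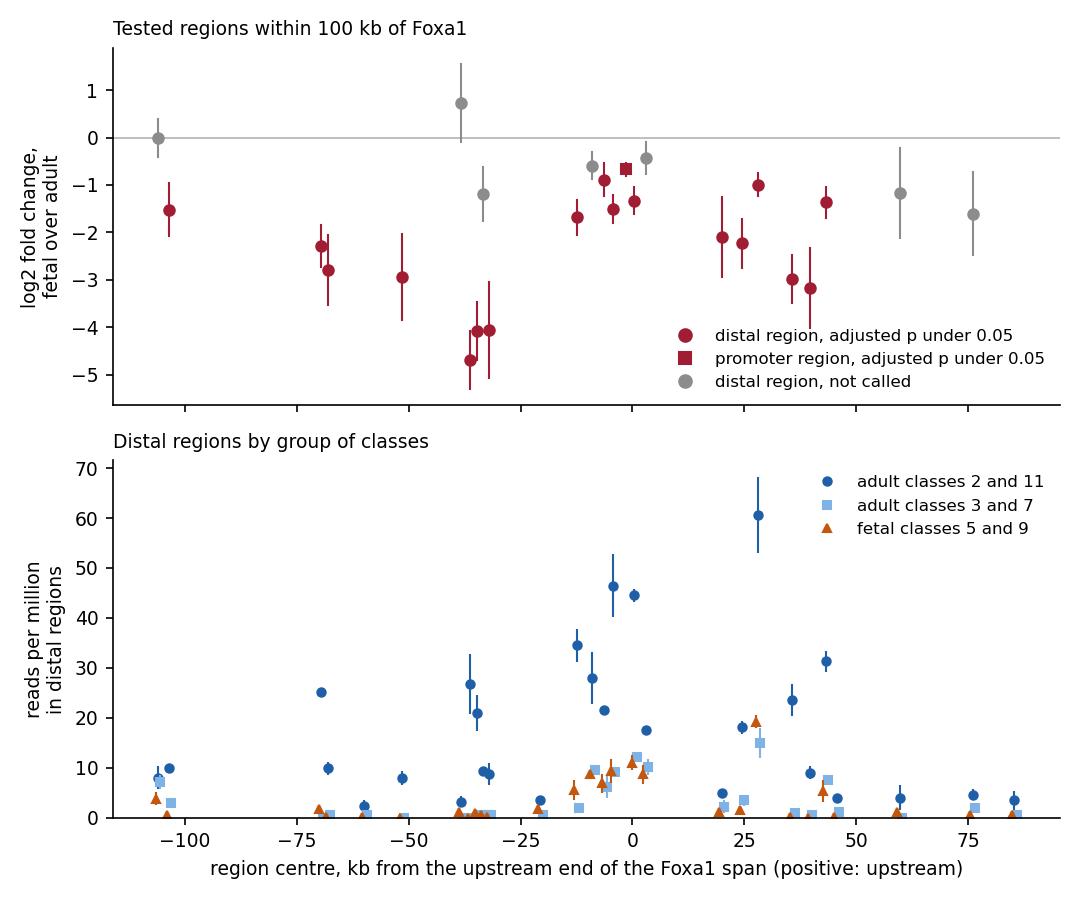
Regions within 100 kb of Foxa1 by distance (kb) from the upstream end of its span. The upper panel gives the log2 fold change of fetal over adult with its SE for the 25 tested regions, and the lower panel gives CPM in distal regions for adult classes 2 and 11, adult classes 3 and 7 and fetal classes 5 and 9 (mean and range of 2 libraries). Of the tested regions 24 are higher in adult libraries, and the lower panel shows the adult mature luminal-like classes above the other groups at most regions.

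Among the classes with high Foxa1, the balance of promoter and distal reads around the gene differed. Of the 28 distal regions, 12 were highest in class 11, 4 in class 2 and 7 in class 13. The same count was not made over all distal regions, so these numbers say nothing particular of the locus. The places of class 13 rest on few reads, and its libraries differed: the gene-body region chr12:57541273-57542272 had 0 CPM in fetal replicate 1 and 65.4 CPM in fetal replicate 2, from 14 reads. In class 13 the promoter region was the most open of all classes, at 411 CPM over both fetal libraries (365 and 436), against 207 CPM (217 and 198) in class 2 and 230 CPM (205 and 242) in class 11. The 24 distal regions outside the window summed to 217 CPM (172 and 238) in class 13, against 328 CPM in class 2 and 411 CPM in class 11. Of promoter and distal reads together, the distal share was 44.8% in class 13 (95% exact interval 36.8 to 53.0), 73.6% in class 2 (71.5 to 75.6) and 78.5% in class 11 (75.8 to 81.1). The intervals do not overlap and cover counting error only. Class 13 is almost wholly fetal and classes 2 and 11 almost wholly adult, so stage and class cannot be told apart here. The regions come from a single list for the whole series, and the effect of that list on these shares was not tested.

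Classes 10 and 14 had 180 and 98.6 CPM at the promoter and 184 and 151 CPM in the distal regions, with the promoter of class 14 resting on 14 and 4 reads (235 and 32.6 CPM). The distal value of class 10 pools 117 CPM in adult replicate 1 (39 reads) and 265 CPM in adult replicate 2 (72 reads). The other 9 classes had 126 CPM or less at the promoter and lower distal CPM than these 5. Class 7 had 126 CPM at the promoter and 50.7 CPM in the distal regions, and class 9 had 105 and 55.0 CPM, distal shares of 38.5% and 48.2%. The distal shares of these 9 classes ran from 24.6% in class 1 to 71.3% in fetal class 12 (95% exact interval 61.8 to 79.6). The interval of class 12 overlaps that of class 2, so a high distal share was not confined to classes with high Foxa1. Basal-like class 1 had 70.3 CPM at the promoter with 13.3 CPM in the distal regions, from 5.31 CPM in adult replicate 1 (2 reads) and 16.7 CPM in adult replicate 2 (15 reads). Over all listed regions of the genome, the distal share of reads ran only from 57.4% to 68.0% between classes.

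**Figure D4:**
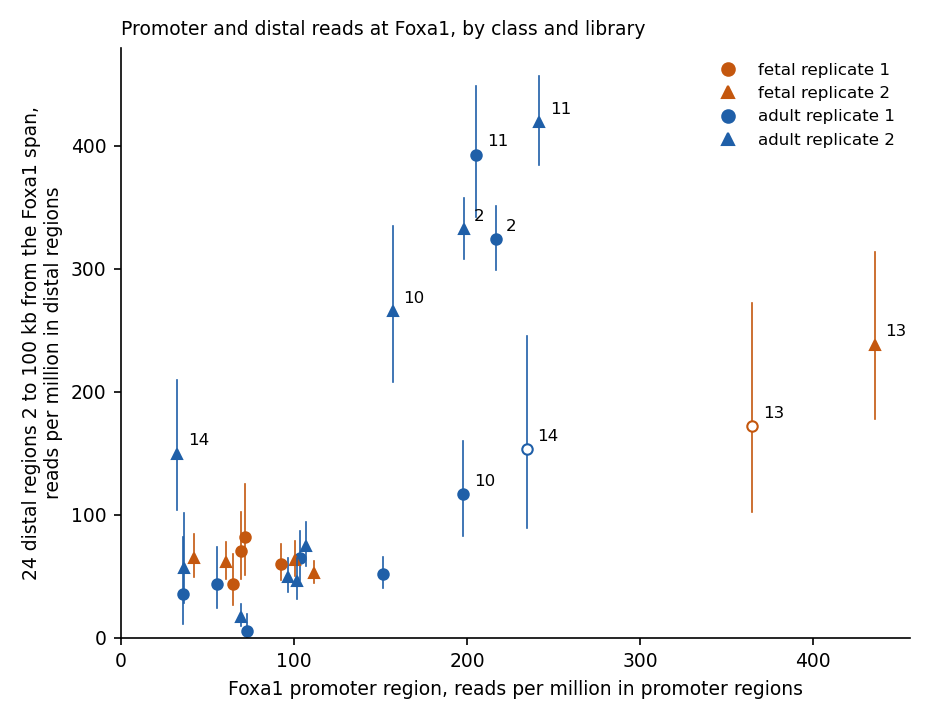
CPM in the Foxa1 promoter region (x axis, scaled to reads in promoter regions) against the summed CPM of the 24 distal regions 2 to 100 kb away (y axis, scaled to reads in distal regions), by class and library. Each point is a sum of class and library, bars are 95% exact Poisson intervals of the distal reads, an open marker is a sum of under 50 nuclei, and classes 2, 10, 11, 13 and 14 are labelled. Class 13 lies to the right at 365 and 436 CPM with 172 and 238 CPM in the distal regions, below classes 2 and 11.

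The deposited co-accessibility links described the Foxa1 locus as densely connected. Cicero gives a pair of regions a score from how often both are open in the same groups of nuclei, here over all nuclei, and a score above 0.1 was taken as a link. Of 215 distinct scored pairs with one of the 5 regions in the Foxa1 window, 110 were links (51.2%), against 2.63% of all 12719512 scored entries. Within 100 kb the share was 83 of 125 (66.4%), against 3.82% of 3747796 entries. The entries were not reduced to distinct pairs, unlike the counts for the FOXA genes. Foxa2 had 1 link among 51 pairs, with a score of 0.116, and Foxa3 had 3 among 546, from the region at the start of Sympk to the regions at Fbxo46 (0.159), Ercc2 (0.128) and Ckm (0.104). The count for Foxa3 depends on the threshold, with 19 links above 0.05, and neither gene had a link above 0.25, where Foxa1 had 57.

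All partners of Foxa1 outside the window were distal regions, but no other promoter region is listed within 200 kb. There were 23 distinct partners, of which 18 were linked to all 5 regions of the window. Of the 23, 9 lay in Ttc6, 5 in Mipol1 and 9 in no gene, with up to 266.9 kb between the starts of linked regions. The strongest link, with a score of 0.558, joined the gene-body region chr12:57543211-57544210 to chr12:57535052-57536051, and the promoter's strongest partner outside the window was chr12:57583237-57584236 in Ttc6 (0.403). Within 100 kb, 16 partners were tested between stages and 14 were called lower in fetal libraries, while of the other distal regions outside the window 4 were tested and 0 called, against 18.8% of all distal regions called lower. Links and stage counts come from the same reads, so the first count is no separate support for the second.

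**Figure D5:**
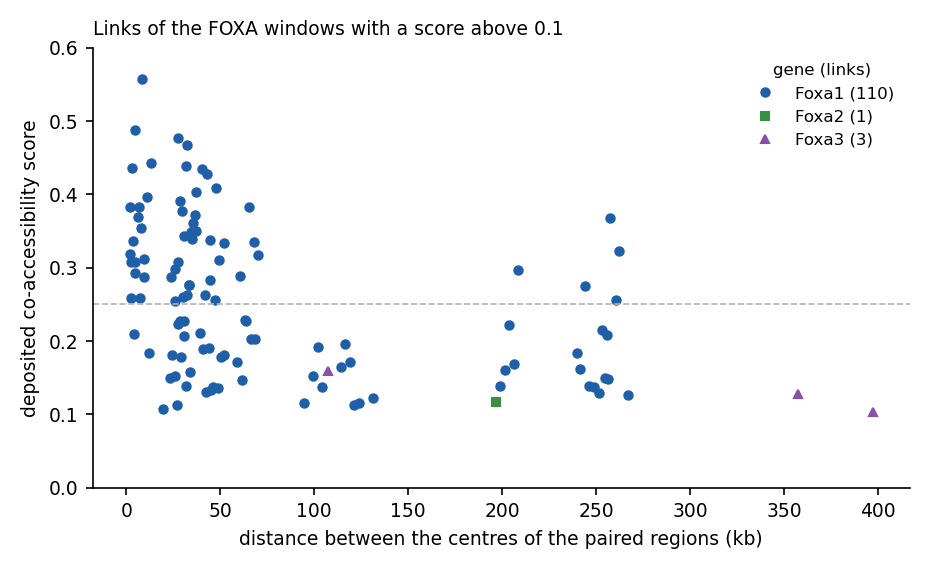
Co-accessibility score of links above 0.1 (y axis, no unit) against the distance between the 2 regions (x axis, kb) for regions in the windows of Foxa1, Foxa2 and Foxa3. The dashed line marks a score of 0.25. Foxa1 has 110 links with scores up to 0.558, Foxa2 has 1 and Foxa3 has 3.

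Near Foxa2, 7 regions were listed within 100 kb and 6 tested, with 1 called in each direction and 0 called without adult replicate 1. These 2 of 6 lie near the share over all regions, 35.3% of distal and 21.5% of promoter regions. The promoter region chr2:148044585-148045584 had 20 and 57 fetal and 66 and 72 adult reads, a difference of -0.28 (edgeR adjusted p = 0.601). A region 1006 bases from the upstream end of the span, chr2:148047975-148048974, had 27 and 92 against 28 and 58 reads, or 22.3 CPM ± 5.36 (SD, n = 2) in fetal and 11.1 CPM ± 3.66 (SD, n = 2) in adult libraries. That rise of 1.03 (SE 0.339, edgeR adjusted p = 0.0215) was not called by DESeq2, nor without fetal replicate 2 (adjusted p = 0.339) or adult replicate 1 (0.202). The fall lay 32760 bases upstream, at chr2:148079729-148080728, with 2 and 6 against 41 and 28 reads (-2.53, SE 0.693, edgeR adjusted p = 0.00381). This region too reached the read filter only through its adult reads, and its call was lost without adult replicate 1.

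None of the 4 regions in the Foxa3 window was called. The region at the start of Sympk held 49.5% of the 2031 reads in the window and differed by 0.13 (edgeR adjusted p = 0.597). The promoter region in Foxa3 itself, chr7:19022167-19023166, had only 6 and 26 fetal and 7 and 14 adult reads (1.13, edgeR adjusted p = 0.258). Of 36 regions listed within 100 kb 33 were tested, and 6 were called higher and 2 lower, 8 in all, which became 5 by DESeq2, 5 without fetal replicate 2 and 4 without adult replicate 2. That is no more than the share called over all regions (35.3% of distal and 21.5% of promoter regions). The closest called ones lay just past the downstream end of Foxa3 and moved in opposite directions. The region chr7:19010175-19011174 had 23 and 53 fetal and 250 and 257 adult reads (-2.13, SE 0.268, edgeR adjusted p = 4.99e-08). Its neighbour chr7:19008830-19009829 had 44 and 116 against 19 and 27 reads (2.41, SE 0.360, edgeR adjusted p = 1.30e-06). Neither formed a link with the Foxa3 window above 0.1.

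The other called regions near Foxa3 lay at neighbouring genes. The Dmpk promoter region chr7:19083940-19084939, at the gene for the myotonic dystrophy kinase, was lower in fetal libraries by 2.27 on the log2 scale (fetal over adult -2.27, SE 0.254, edgeR adjusted p = 1.54e-10). Called rises included a region in Nova2, which encodes a neuronal splicing factor (2.03), 2 in Dmpk (1.31 and 1.29) and the Dmwd promoter region (0.54). Each of these 4 rises lost its call when at least 1 library was left out.

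Genes linked to FOXA1 in luminal cells were lower in fetal libraries in part. Of 20 such genes tested between stages by edgeR, 10 fell and 2 rose in fetal libraries, against 10.9% and 11.3% of all genes, with a median of -0.36 against 0.01 over all genes. Areg, which encodes the growth factor amphiregulin, had 13.3 and 17.0 CPM in fetal and 58.9 and 58.4 CPM in adult libraries (-1.91). The prolactin receptor gene Prlr (-1.56), the keratin gene Krt19 (-1.44) and the progesterone receptor gene Pgr (-1.25) also fell. Pgr had 59.3 and 61.0 CPM in fetal and 136.9 and 148.7 CPM in adult libraries, and the estrogen receptor gene Esr1 had 111 and 130 against 193 and 229 CPM (-0.80). Tbx3 (0.45) and Myb (0.49), which encode transcription factors, rose. Without classes 2 and 11, 5 of the 20 fell and 3 rose, against 7.03% and 6.68% of all genes. Among basal-like classes 0 fell and 1 rose, near the 3.04% and 2.93% of all genes.

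In adult nuclei, 5 of the 20 stood at least 1 log2 unit higher in the mature luminal-like than in the progenitor-like classes in both libraries, against 3.11% of 17195 genes. These were Areg (2.58 and 2.76), Pgr (2.63 and 2.25), Greb1 (2.11 and 2.01), Esr1 (1.22 and 1.31) and Spdef (1.02 and 1.11). Areg, Esr1 and Pgr are also among the markers that named these classes. Of 13 endoderm and liver genes, where FOXA factors are best known, 3 rose and 1 fell in fetal libraries by edgeR, against 11.3% and 10.9% of all genes, with a median of 0.40 against 0.01. The rises were Apoa1 (1.24), Gata4 (0.82) and Gata6 (0.62). The albumin gene Alb fell (-2.03), from few reads, at 0.859 and 2.22 CPM in fetal and 5.78 and 8.31 CPM in adult libraries. None of 12 endoderm genes differed by 1 log2 unit between the adult luminal lineages in both libraries, where 3.11% of all genes were higher and 2.66% lower. Of 41 other forkhead genes, 10 rose and 5 fell with a median of 0.20 by edgeR, against 11.3% and 10.9% of all genes. DESeq2 called 5 and 4, against 16.6% of all genes in both directions. Fewer of the other forkhead genes were called without either fetal library, and fewer endoderm genes without fetal replicate 1. Over all genes the calls also became fewer in these fits.

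The gene whose levels were most like those of Foxa1 over the 26 sums was Ttc6 (Pearson r 0.966 of log2 levels), whose window shares reads with Foxa1. It was followed by Cit (0.936), Cela2a (0.936), C77080 (0.914), Dennd11 (0.902), Mgat5 (0.899), Ptpn21 (0.899), Ctnnbl1 (0.891), R3hdml (0.886) and Mlph (0.883), with a median of 0.0458 over 16239 genes. The highest for Foxa2 were lower, led by Mdga1 (0.761), Serp2 (0.719) and Dnah14 (0.707), and for Foxa3 by Ppp1cc (0.788), Cfap100 (0.770) and Gm52782 (0.722). The Foxa3 window also takes in a neighbour, with 49.5% of its reads in the region at the start of Sympk. The sums averaged 170 reads for Foxa1, 31.6 for Foxa2 and 76.6 for Foxa3, so counting error weighs more on Foxa2 and Foxa3.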

How the data were processed

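Nuclei of 2 fetal and 2 adult libraries were read from the deposited fragment lists and the deposited table of classes. Reads were mapped to mm10, and Bowtie2, MACS2 and bedtools were used, per the submitters' processing notes; versions and the shift of read ends are not given in the sources used here. The count of reads per nucleus deposited by the authors equalled the reads in the lists for all 7846 nuclei, which hold 86.9% to 95.3% of the reads of a library (6028168 to 19304830 reads). The motif deviation score of each nucleus and the co-accessibility score of each pair of regions were used as deposited by the authors. The authors' gene accessibility score was not used here.

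Reads were summed per library over 21887 RefSeq spans (GRCm38.p6) plus 2000 bases, 145453 distal and 19204 distinct promoter regions of 1000 bases, each read counting wherever it overlapped by 1 base. Stages were compared with edgeR 4.0.16 in R 4.3.3 (quasi-likelihood test, TMM, mean of at least 10 reads per library, adjusted p threshold 0.05, SE from the log2 fold change and F statistic) and library means of motif scores with limma 3.58.1. The scripts were tested on simulated data. The 14 classes were taken from the deposited table, marker names follow a rise of at least 0.5 log2, and a class level needed 50 nuclei. Intervals are exact at 95% and cover counting error only. Sums and intervals used Python 3.11.15 with pandas 2.3.3 and scipy 1.17.1.

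Members and lists were chosen with earlier results of these data known. Regions named are those in the windows and up to 5 called rises and 5 called falls within 100 kb per gene whose libraries do not overlap between stages. The 10 genes most like each member, the 5 most and 5 least like motif columns and 2 to 4 members of each list by size of change are named, and others were added where a result turns on them. A few items these rules name are not reported here. Alternatives were DESeq2 1.42.0, other scalings and filters, the replicate number as a block, every barcode, subsets of classes, no flank and leaving out each library.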

Additional observations from a re-analysis of the deposited data

How the results depend on the processing

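The Foxa1 fall between stages kept its direction and its call under DESeq2, every scaling and filter, without flanks, with every barcode and without each library (-0.92 to -0.85). It became -0.11 without classes 2 and 11 and -0.19 within classes 3, 5, 7 and 9, and turned to 0.33 within classes 1, 4 and 8. Foxa2 turned to -0.0402 within classes 3, 5, 7 and 9. Foxa3 turned to -0.0518 without classes 2 and 11 and to -0.10 within classes 3, 5, 7 and 9, and ran from -0.0534 to 0.12 when libraries were left out. Of the regions in the Foxa1 window, chr12:57538559-57539558 turned to 0.048 without classes 2 and 11, chr12:57541273-57542272 to 0.20 within classes 3, 5, 7 and 9 and chr12:57546120-57547119 to 0.25 within classes 1, 4 and 8. The Foxa3 region chr7:19011912-19012911 turned from -0.04 to 0.0099 with a mean of at least 50 reads, 0.0026 with every barcode and 0.39 within classes 1, 4 and 8, and ran from -0.19 to 0.11 without single libraries. Called regions near Foxa1 numbered 7 with a mean of at least 50 reads, 0 within each of the 3 subsets of classes and 11 to 15 without single libraries, with the 11 without adult replicate 2. Over all features, called gene spans numbered 2526 without classes 2 and 11, 984 within classes 1, 4 and 8 and 1812 to 4463 without single libraries. Called distal regions numbered 24872 by DESeq2 and 15301 of the 28608 tested (53.5%) with a mean of at least 50 reads. They numbered 22105 (22.5% of those tested) without classes 2 and 11. Within classes 3, 5, 7 and 9 they numbered 15048 (25.0%), and 2994 (10.7%) within classes 1, 4 and 8. Called promoter regions numbered 2622, 2433, 2002 and 194 by DESeq2 and in the same 3 subsets, and 2514 to 3057 without single libraries. Class levels depended on the denominator and the flank: the median of the 14 class means was 57.1 CPM for Foxa1, 16.4 CPM for Foxa2 and 38.5 CPM for Foxa3 when scaled to all reads, and 13.9 CPM for Foxa2 and 10.2 CPM for Foxa3 without flanks. The mature luminal-like minus progenitor-like difference of Foxa1 was 1.23 without flanks, and 57 Foxa1 links had a score above 0.25. Where fewer reads or nuclei entered, fewer calls were possible, and other causes were not tested. The number of regions near Foxa1 tested is not given for the mean of at least 50 reads. Nor is it given for classes 3, 5, 7 and 9 or for classes 1, 4 and 8. The counts of 7 and 0 called there therefore cannot be compared with the shares over all distal regions.

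The libraries of the 2 stages share replicate numbers, but the labels do not say that a number marks a shared litter, day or batch. Deviations of same-numbered libraries from their stage means correlated at 0.267 over gene spans, 0.0593 over promoter regions, 0.0421 over distal regions and 0.449 over motif columns. With the replicate number as a block, 6421 gene spans were called, Foxa1 was -0.87 (edgeR adjusted p = 1.41e-10) and its motif score -2.65 (limma adjusted p = 0.000314). Leaving out a library leaves 1 library in a stage, which is then assumed to vary like those of the other stage. Depth limits the weak regions: the 5 largest called falls near Foxa1 rest on 2 to 12 fetal reads.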

Other observations

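Of 38 other forkhead genes deep enough to compare, 0 stood at least 1 log2 unit higher and 2 lower (Foxi1 and Foxs1) in the adult mature luminal-like than in the progenitor-like classes in both libraries, near the 3.11% and 2.66% of all genes. Both also had lower levels in fetal libraries, at 3.44 and 5.90 CPM against 14.7 and 11.6 CPM for Foxi1 (log2 fold change -1.41, edgeR adjusted p = 0.00609) and at 3.65 and 4.27 CPM against 14.5 and 11.3 CPM for Foxs1 (-1.67, edgeR adjusted p = 0.00192). Foxi3, a forkhead factor of ectodermal organs, was higher in fetal libraries, at 23.4 and 29.6 CPM against 10.71 and 11.97 CPM (1.24, edgeR adjusted p = 0.000712), as was Foxc2, a factor of mesenchyme and lymphatic vessels, at 22.1 and 20.8 CPM against 10.4 and 9.30 CPM (1.12, edgeR adjusted p = 0.00209). Foxn4, next after Foxa1 in likeness to the Foxa1 motif score, had 19.12 and 18.03 CPM in fetal and 28.8 and 25.7 CPM in adult libraries (-0.56, edgeR adjusted p = 0.0316).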
